A study of Mus musculus with 3 samples.

Results

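Acyl-CoA thioesterases of the Acot family cut activated fatty acids (acyl-CoA) into free fatty acid and coenzyme A. The 9 members studied here, Acot1, Acot2, Acot3, Acot4, Acot7, Acot8, Acot9, Acot12 and Acot13, were taken by gene symbol, with earlier results of these data known, and all 9 were found among the 49492 entries of the deposited tables. RNA was sequenced from livers of CD-1 mice, an outbred strain. One group took zinc oxide nanoparticles (ZnO) orally for 8 weeks, 25 mg/kg each day, another took the same dose for 12 weeks, and control mice were given phosphate-buffered saline (PBS). Each group has 1 library, so no difference has a replicate check, no p-value is given, and differences between animals or dates cannot be told apart from those between treatments. The labels do not give sex, age, feeding state, the hour of collection or the number of animals in a library. How long the control mice were given PBS is not stated either. Both treated groups are compared with this same control library, so a match in duration or age is not known for either.

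Acyl-CoA is the form in which a fatty acid enters beta-oxidation or is built into lipids, and thioesterases work against acyl-CoA synthetases in setting how much of it is present. Each compartment of the mouse hepatocyte has its own enzymes. Acot1 is cytosolic and Acot2 lies in the mitochondrial matrix, and both act on long-chain acyl-CoA. Acot3 and Acot4 are peroxisomal in mice, Acot3 acting on longer chains and Acot4 on succinyl-CoA. In mouse liver, Acot1 is known as a target of the fatty acid receptor PPAR-alpha and as a gene induced by fasting. Other members may share this control, which was not tested here. Acot7 is a cytosolic long-chain enzyme known best from brain, and Acot8 is a peroxisomal enzyme of broad range. Acot9 is mitochondrial, Acot12 is a cytosolic enzyme that hydrolyses acetyl-CoA, and Acot13 is a small enzyme associated with mitochondria.

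Acot1 to Acot4 are close copies, so the first question is how well reads could be assigned to each. In the mm10 coordinates of the files they lie on the plus strand of chromosome 12, at 84009502 to 84017670 (Acot1), 83987861 to 83993873 (Acot2), 84052144 to 84059565 (Acot3) and 84038379 to 84044723 (Acot4). Their order along the chromosome is Acot2, Acot1, Acot4, Acot3, followed by Acot5 and Acot6, over 123 kb. In GENCODE M21 (GRCm38), whose 4 longest coding transcripts were aligned, the coding sequences of Acot1 and Acot2 were 95.6% identical. Acot3 was 84.0% identical to Acot1 and 84.2% to Acot2, and Acot4 was between 74.2% and 75.4% identical to the others. The longest stretch shared without a difference by Acot1 and Acot2 was 273 coding bases, within 1 exon of each gene. It is printed because a read that falls inside it could come from either gene.

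Acot1 chr12:84017006-84017278 and Acot2 chr12:83992728-83993000, plus strand, GRCm38: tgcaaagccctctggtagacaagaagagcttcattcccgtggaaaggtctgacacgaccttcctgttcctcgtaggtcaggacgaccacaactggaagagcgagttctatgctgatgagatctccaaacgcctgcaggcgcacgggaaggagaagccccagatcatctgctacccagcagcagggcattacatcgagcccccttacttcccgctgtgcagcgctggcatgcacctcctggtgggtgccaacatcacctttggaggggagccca

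Of the 50-base windows in their annotated transcripts, 19.2% of those of Acot1 and 27.7% of those of Acot2 also occurred in a transcript of another gene, in either orientation. For this pair the partner was most often the other of the 2, with 527 windows in common. The share was 21.3% for Acot3 and 13.4% for Acot4, and only 7.57% of the windows of Acot3 and 4.17% of those of Acot4 were shared with the other Acot genes of the cluster. With 100-base windows the shares were 12.4% for Acot1, 17.1% for Acot2, 15.9% for Acot3 and 8.24% for Acot4. The read length is not given in the sources used here. For Acot1, Acot3 and Acot4 the annotated transcripts reach beyond the gene models of the files. Acot1 had 3886 windows of 50 bases and Acot4 had 6622, against lengths of 1559 and 2508 bases in the files. Shares within the counted bases were not computed and may differ from those given. The remaining partners were mainly the GENCODE models Gm49366 and 4732463B04Rik for Acot3, and 4732463B04Rik for Acot4. 4732463B04Rik lies on the opposite strand and shares 312 of the 2601 exonic bases of Acot3 and 615 of the 2508 of Acot4. The labels do not say whether counting used strand. Single values of these 4 genes are therefore uncertain, and their sum is given too.

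The other 5 genes stand apart. Acot7 lies on chromosome 4 (152178134 to 152271855), Acot8 on chromosome 2 (164792768 to 164804882), Acot9 on the X chromosome (155262443 to 155297654), and Acot12 and Acot13 on chromosome 13 (91741512 to 91786148 and 24817948 to 24831517). Acot7 and Acot13 shared 0 of their 50-base windows with other genes. Acot9 shared 15.2% (344 windows, all found in Acot10), and Acot10 had 0 counts in every library. Acot8 shared 243 of 1994 exonic bases with the opposite-strand gene Snx21, and Acot12 shared 149 of 3293 with 4833422C13Rik.

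The promoters of the 4 neighbours are printed because these neighbouring genes differed from each other in direction. The windows are RefSeq sequence (GRCm38.p6), from 250 bases before to 50 bases after the transcript start, and the transcript start is the position that the files give for each gene. Capitals mark the only match, with at most 1 mismatch, to a direct repeat of the 6-base element AGGNCA with 1 base between the copies, the form of element that PPAR-alpha is known to bind.

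Acot2 promoter, chr12:83987611-83987910, plus strand: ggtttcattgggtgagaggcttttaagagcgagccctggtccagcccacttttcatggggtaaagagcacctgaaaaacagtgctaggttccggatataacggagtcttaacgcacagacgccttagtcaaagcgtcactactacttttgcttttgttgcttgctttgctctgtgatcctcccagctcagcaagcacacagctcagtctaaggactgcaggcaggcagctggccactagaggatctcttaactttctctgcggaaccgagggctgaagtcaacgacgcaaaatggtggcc
Acot1 promoter, chr12:84009252-84009551, plus strand: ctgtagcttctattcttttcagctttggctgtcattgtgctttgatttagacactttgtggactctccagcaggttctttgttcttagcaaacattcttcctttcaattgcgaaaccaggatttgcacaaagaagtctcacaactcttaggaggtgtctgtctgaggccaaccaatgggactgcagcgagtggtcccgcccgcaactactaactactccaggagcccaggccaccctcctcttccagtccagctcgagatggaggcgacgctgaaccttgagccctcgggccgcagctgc
Acot4 promoter, chr12:84038129-84038428, plus strand: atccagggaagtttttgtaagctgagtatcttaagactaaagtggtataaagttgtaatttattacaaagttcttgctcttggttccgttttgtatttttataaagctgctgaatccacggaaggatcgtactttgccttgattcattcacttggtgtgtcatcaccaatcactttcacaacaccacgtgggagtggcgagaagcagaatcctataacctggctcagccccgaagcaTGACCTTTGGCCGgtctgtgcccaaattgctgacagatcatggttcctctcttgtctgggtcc
Acot3 promoter, chr12:84051894-84052193, plus strand: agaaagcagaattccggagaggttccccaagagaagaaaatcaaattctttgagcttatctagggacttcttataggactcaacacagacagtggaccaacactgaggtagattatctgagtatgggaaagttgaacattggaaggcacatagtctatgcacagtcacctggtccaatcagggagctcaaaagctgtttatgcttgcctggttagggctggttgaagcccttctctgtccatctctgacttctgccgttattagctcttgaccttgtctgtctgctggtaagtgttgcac

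The repeat was searched on both strands. With no mismatch it was found in 0.381% of 32851 promoter windows, and in none of those of the 8 members with a window in the table. With 1 mismatch allowed it was found in 4.71% of all windows, once in Acot4 (13 bases, starting at -13 from the transcript start) and once in Acot12 (TGACCTCTCACCT, starting at -110). A match is a description of letters, and elements outside these windows were not searched.

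The deposited counts summed to 14258915 in the 8-week library, 13263328 in the 12-week library and 13615143 in the control. Levels are given as CPM, the count scaled to library size. Changes are log2 ratios of CPM + 1, which understate those of low genes. Genes past 2-fold were called, by size alone and with no test behind it. Intervals are exact (Clopper-Pearson) 95% intervals of the count ratio, and both these and the Poisson intervals cover counting error only. Of 14581 genes with at least 1 CPM in 1 library, 4.15% were called higher and 2.11% lower at 8 weeks, and 3.11% higher and 1.34% lower at 12 weeks, each against the control. All 9 members passed this filter. Hepatocyte markers were present in all libraries, with 7 genes summing to 48119.5 CPM at 8 weeks, 50512 at 12 weeks and 38397 in the control. Most of each sum was Alb, with 31793 CPM at 8 weeks, 31169 at 12 weeks and 21847 in the control. Apoa1 and Serpina1c were lower in both treated libraries than in the control and the others higher, with none called. Skeletal muscle markers stood out in 1 library, with 10 genes summing to 199 CPM at 8 weeks, 1.21 at 12 weeks and 1.92 in the control. Of 12 Kupffer cell markers, 12 were called higher at 8 weeks and 11 at 12 weeks, with sums of 405 CPM at 8 weeks, 305 at 12 weeks and 96.7 in the control. Adipocyte markers reached at most 0.0755 CPM in sum, with Lep, Cidea, Ucp1 and Retn at 0 counts. The part of other cell types in the values of the Acot genes was not tested. In whole liver, fewer cells of a type and less RNA per cell cannot be told apart.

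At 8 weeks, 2 of the 9 members were called lower, Acot1 and Acot2, and 0 were called higher, against 2.11% and 4.15% of all genes. At 12 weeks, Acot1 was called lower and Acot3 higher, against 1.34% and 3.11% of all genes. The median log2 ratio of the 9 members was 0.20 at 8 weeks and 0.04 at 12 weeks, with -0.02 and -0.01 over all genes. The 3 genes called in either comparison, Acot1, Acot2 and Acot3, all lie in the cluster on chromosome 12.

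**Figure D1:**
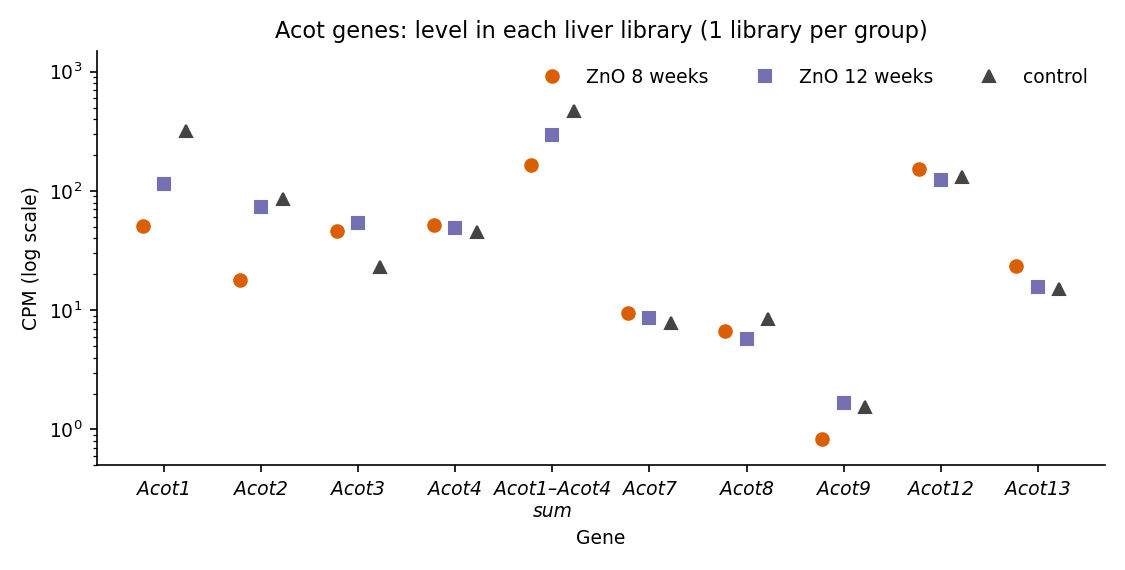
CPM (log axis) of the 9 Acot genes and of the sum of Acot1 to Acot4 in the ZnO 8-week, ZnO 12-week and control libraries; each point is 1 library. Acot1 stands at 50.7 CPM at 8 weeks and 115 at 12 weeks, against 316 in the control, while Acot3 is lowest in the control at 22.9.

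The cytosolic enzyme Acot1 showed the widest range of the 9. It had 726.83 counts at 8 weeks and 1528.5 at 12 weeks, against 4292.5 in the control, which is 50.7, 115 and 316 CPM in that order. Both treated libraries were below the control, the 8-week library by more. The log2 ratio was -2.62 at 8 weeks (interval -2.76 to -2.53), or 6.13-fold lower. At 12 weeks it was -1.45 (interval -1.54 to -1.37), or 2.73-fold lower.

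Acot2, the mitochondrial enzyme and the closest relative of Acot1, differed from the control at 8 weeks. It had 254.67 counts (17.8 CPM) at 8 weeks and 974.83 (73.6 CPM) at 12 weeks, against 1164.17 (85.8 CPM) in the control. The log2 ratio was -2.21 at 8 weeks (interval -2.47 to -2.07) and was called, and -0.22 at 12 weeks (interval -0.34 to -0.10) and was not called. The 12-week library thus stood near the control and the 8-week library far below both.

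The peroxisomal enzyme Acot3 went the other way. It had 661.2 counts (46.1 CPM) at 8 weeks and 716 (54.1 CPM) at 12 weeks, against 311.33 (22.9 CPM) in the control. Its log2 ratio was 1.203 at 12 weeks (interval 1.04 to 1.43), called higher, and 0.98 at 8 weeks (interval 0.81 to 1.21), just short of the 2-fold line at 1. With 0.1 CPM added in place of 1, the 8-week value was 1.01 and was called. Both treated libraries lay above the control, and nearer to each other than to it. The opposite-strand model 4732463B04Rik that overlaps Acot3 had log2 ratios of 0.42 at 8 weeks and 0.49 at 12 weeks, with 511.2 counts at 8 weeks and 495.5 at 12 weeks, against 358 in the control.

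Acot4, the succinyl-CoA thioesterase of peroxisomes, was not called at either time. Its counts were 740 at 8 weeks and 652.5 at 12 weeks, against 609.83 in the control, or 51.6, 49.2 and 44.96 CPM in that order. The log2 ratios were 0.20 (interval 0.04 to 0.36) and 0.13 (interval -0.03 to 0.29), and the interval at 12 weeks spans no change. This gene lies between Acot1 and Acot3 on the chromosome and overlaps the same opposite-strand model as Acot3.

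**Figure D2:**
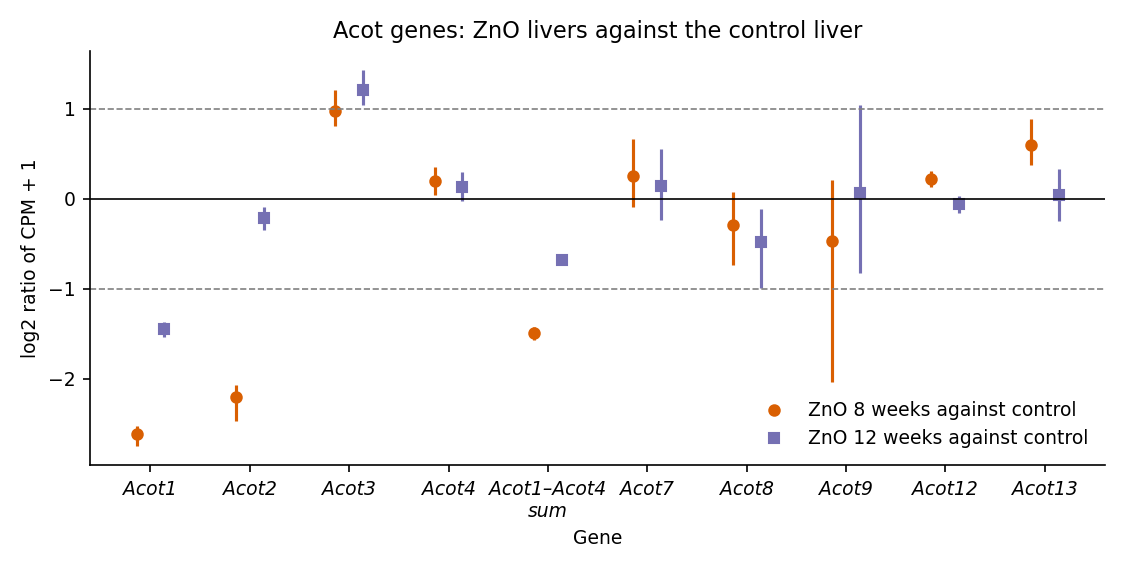
Log2 ratio of CPM + 1 of each Acot gene and of the Acot1 to Acot4 sum, ZnO 8 weeks (circles) and ZnO 12 weeks (squares) against the control; vertical lines are exact 95% intervals of the count ratio (counting error only, without the added CPM), dashed lines mark 2-fold. Acot1 (-2.62 and -1.45) lies below the lower line at both times and Acot2 (-2.21) at 8 weeks, while Acot3 lies just under the upper line at 8 weeks (0.98) and above it at 12 weeks (1.203).

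Summed, Acot1 to Acot4 had 2382.7 counts (166 CPM) at 8 weeks and 3871.83 (292 CPM) at 12 weeks, against 6377.83 (470 CPM) in the control. The sum is free of any misassignment among the 4 genes. It is not free of reads shared with genes outside the 4, such as Acot5, Gm49366 and 4732463B04Rik, or of reads that counting left out. Its log2 ratio was -1.49 at 8 weeks (interval -1.57 to -1.43), called lower, and -0.68 at 12 weeks (interval -0.74 to -0.63), not called. Acot1 made most of the difference: without it, Acot2 to Acot4 together had a log2 ratio of -0.41 at 8 weeks and 0.20 at 12 weeks, a combination chosen after the values were seen. Acot1 and Acot2 together, also chosen then as the closest pair, had -2.54 at 8 weeks and -1.09 at 12 weeks, both called lower.

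The make-up of the 4-gene sum differed as well. Acot1 took 30.5% of these counts at 8 weeks (interval 28.7% to 32.4%) and 39.5% at 12 weeks (37.9% to 41.0%), against 67.3% in the control (66.1% to 68.4%). Acot3 took 27.7% at 8 weeks and 18.5% at 12 weeks, against 4.88% in the control. The share of Acot2 was 10.7% at 8 weeks and 25.2% at 12 weeks, against 18.3% in the control, and that of Acot4 was 31.1% at 8 weeks and 16.8% at 12 weeks, against 9.56% in the control. In the control 1 gene held most of the counts, and at 8 weeks Acot1, Acot3 and Acot4 held about equal parts. These are shares of counts, which also depend on gene length. Scaled to gene length as well (TPM), Acot1 stood at 69.1 at 8 weeks, above Acot4 at 43.7 and Acot3 at 37.7. Since the 4 shares add up, a lower share of Acot1 by itself gives the others higher ones.

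**Figure D3:**
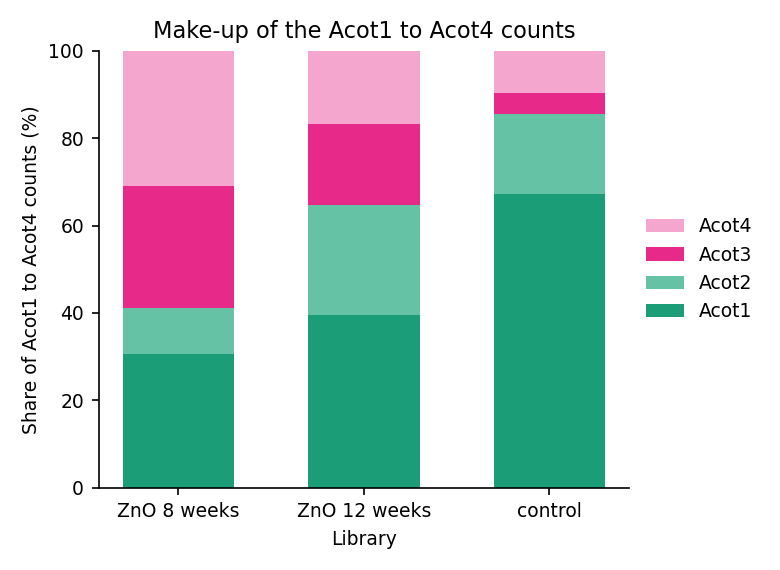
Share of the summed Acot1 to Acot4 counts taken by each gene (%, stacked bars) in the ZnO 8-week, ZnO 12-week and control libraries, 1 library each. Counts are not corrected for gene length. The Acot1 part is 30.5% at 8 weeks and 39.5% at 12 weeks, against 67.3% in the control, and the Acot3 part is smallest in the control at 4.88%.

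Set along the chromosome, genes with different changes lay side by side. The genes with at least 1 CPM within 100 kb of the cluster included Numb, which encodes a Notch inhibitor, at -0.17 at 8 weeks and -0.10 at 12 weeks. On the far side, Dnal1, an axonemal dynein light chain gene, had 0.53 and 0.26, and Elmsan1 had -0.23 and 0.06. None of these flanking genes was called. Acot6, the last gene of the cluster, had 20 counts at 8 weeks and 46 at 12 weeks, against 31 in the control, and was not called (-0.46 and 0.45). Acot5 had 2 counts at 8 weeks and 1.5 at 12 weeks, against 1.25 in the control, under the level of 3 counts, and no change in it was detectable at this depth.

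**Figure D4:**
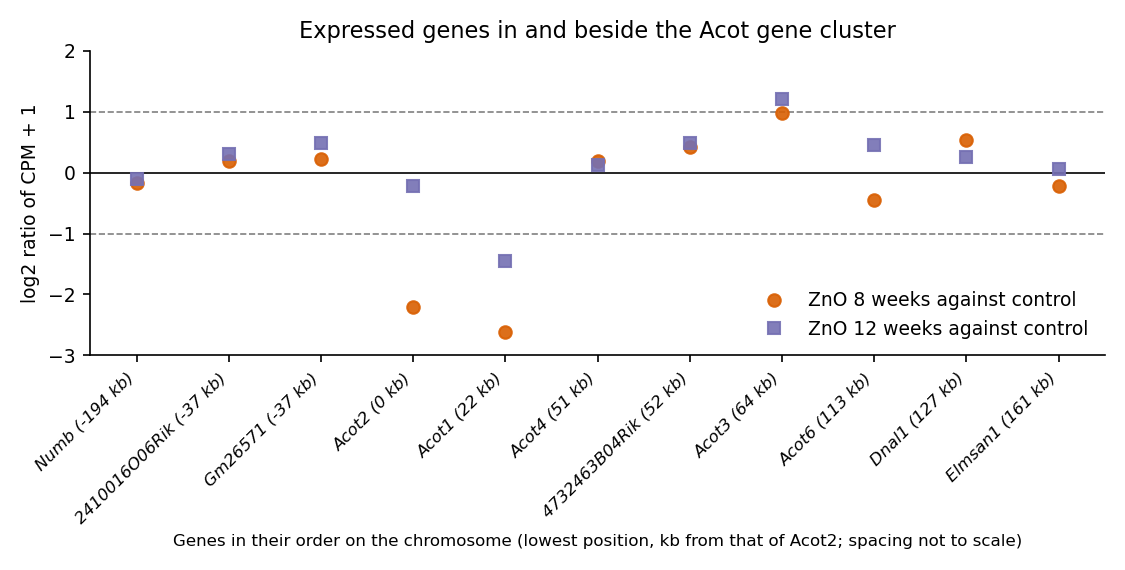
Log2 ratio of CPM + 1 against the control for genes with at least 1 CPM in and within 100 kb of the Acot cluster, in chromosome order (circles 8 weeks, squares 12 weeks, dashed lines 2-fold). Acot2 and Acot1 lie below the lower line at 8 weeks, Acot3 lies just under the upper one at 8 weeks and above it at 12 weeks, and the flanking genes lie between the lines.

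The remaining 5 members were not called at either time. Acot12, the acetyl-CoA hydrolase and the most abundant of the 5, had 151 CPM at 8 weeks and 125 at 12 weeks, against 130 in the control (log2 ratios 0.22 and -0.07). Acot13 had 334 counts (23.3 CPM) at 8 weeks and 206 (15.6 CPM) at 12 weeks, against 205 (15.1 CPM) in the control. Its log2 ratio of 0.59 at 8 weeks (interval 0.37 to 0.88) exceeds counting error and is under 2-fold, while its 12-week value was 0.04 (interval -0.24 to 0.33).

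The last 3 were low. Acot7 had 135 counts at 8 weeks and 114 at 12 weeks, against 105 in the control (0.25 and 0.14), and both intervals include 0. Acot8 had 96 counts at 8 weeks and 76 at 12 weeks, against 114 in the control (-0.29 and -0.48). Its interval at 12 weeks was -0.99 to -0.12, below 0, and at 8 weeks it included 0. Acot9 had 12 counts at 8 weeks and 22 at 12 weeks, against 21 in the control, and with intervals of -2.04 to 0.20 and -0.83 to 1.04 no difference was detectable at this depth.

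Levels of different genes were compared per length, as TPM, which is scaled to library size and to the gene length in the files. At 8 weeks Acot12 led at 97.6 TPM (Poisson interval 93.6 to 102), followed by Acot1 at 69.1 and Acot13 at 68.6, whose intervals overlap. At 12 weeks Acot1 led at 153 TPM, before Acot12 at 78.4 and Acot2 at 69.5. In the control Acot1 led at 417 TPM (404 to 429), ahead of Acot12 at 81.2 and Acot2 at 80.2, whose intervals overlap. Acot9 was the lowest member in all 3 libraries, at 0.782 TPM at 8 weeks and 1.51 at 12 weeks, against 1.40 in the control. Acot4 and Acot3 followed each other in this order at 8 weeks (43.7 and 37.7 TPM, with overlapping intervals), whereas in the control Acot4 stood at 36.8 and Acot3 at 18.1.

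Grouped by compartment, the 3 cytosolic members (Acot1, Acot7 and Acot12) summed to 176 TPM at 8 weeks and 240 at 12 weeks, against 505 in the control. The lower sum at 8 weeks was that of Acot1, since Acot12 had 97.6 TPM at 8 weeks against 81.2 in the control, and Acot7 had 9.42 against 7.48 in the control. Mitochondrial members (Acot2, Acot9 and Acot13) summed to 86.6 TPM at 8 weeks and 116 at 12 weeks, against 125 in the control. At 8 weeks Acot2 was lower, with 17.2 TPM against 80.2 in the control, while Acot13 had 68.6 TPM at 8 weeks against 43.0 in the control. Those of peroxisomes (Acot3, Acot4 and Acot8) summed to 88.5 TPM at 8 weeks and 89.8 at 12 weeks, against 63.6 in the control. The peroxisomal part of all 9 was 25.2% at 8 weeks and 20.1% at 12 weeks, against 9.16% in the control. The total behind these shares was 351 TPM at 8 weeks and 446 at 12 weeks, against 694 in the control, so the lower level of Acot1 by itself gives peroxisomal members a higher share. Acot13 is also found outside mitochondria, so this grouping is a coarse one.

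Between the treated libraries, 12 weeks against 8 weeks, Acot1 and Acot2 were called higher and 0 members were called lower, against 1.28% and 1.23% of all genes. Acot2 had a log2 ratio of 1.99 (interval 1.85 to 2.25) and Acot1 of 1.17 (1.06 to 1.31). The 4-gene sum had 0.81 (0.74 to 0.89). Acot3 stood at 0.22, Acot4 at -0.07, Acot12 at -0.28 and Acot13 at -0.55. Of the 9 members, Acot2 thus differed most between the treated libraries. At 12 weeks Acot2 stood close to the control, and Acot1 stood between its 8-week level and the control.

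Around the family, 117 genes of fatty acid and coenzyme A metabolism and its regulators were kept from 9 lists. Pairs of values given for them are log2 ratios against the control, at 8 weeks and then at 12 weeks. Of the 117, 9 were called higher and 11 lower at 8 weeks, and 5 higher and 10 lower at 12 weeks. Over all genes the shares were 4.15% higher and 2.11% lower at 8 weeks, and 3.11% higher and 1.34% lower at 12 weeks. The same shares stand beside the counts of each single list below. The carnitine shuttle, which carries acyl groups into mitochondria, had 4 of 7 genes lower and 0 higher at 8 weeks (median -1.001) and 1 lower at 12 weeks (median -0.35). Crot, the peroxisomal carnitine octanoyltransferase, had 534 CPM at 8 weeks and 543 at 12 weeks, against 1760.4 in the control (-1.72 and -1.70). Slc22a5, the carnitine importer, had 29.5 CPM at 8 weeks and 66.6 at 12 weeks, against 67.7 in the control, so that its 8-week value was called (-1.17) and its 12-week value was not (-0.02). Cpt2 (-1.001) and Crat (-1.06), which exchange acyl groups between carnitine and coenzyme A, were called at 8 weeks, with -0.81 and -0.80 at 12 weeks. Cpt2 stood just past the 2-fold line. With DESeq2 size factors as the scaling, 3 of the 7 genes were lower at 8 weeks, and with 5 CPM added 2 were.

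Among 18 genes of peroxisomal oxidation, 1 was higher and 2 were lower at 8 weeks (median -0.29), and 0 were higher and 2 lower at 12 weeks (median -0.32). Ehhadh, the bifunctional enzyme, had 283 CPM at 8 weeks and 261 at 12 weeks, against 1336 in the control (-2.24 and -2.35), and the thiolase Acaa1b had -1.11 and -1.27. The exception was Abcd2, a transporter of very-long-chain acyl-CoA, at 1.99 and 0.87. None of 16 genes of mitochondrial beta-oxidation was called (medians -0.38 and -0.45), with the dehydrogenase Acadm at -0.42 and -0.66 and Hadh at 0.17 and 0.02.

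Of 16 other PPAR-alpha target genes, 5 were lower and 0 higher at 8 weeks (median -0.79), and 5 lower and 1 higher at 12 weeks (median -0.46). The fatty acid hydroxylase Cyp4a10 had -1.64 and -2.56, its relative Cyp4a31 had -0.53 and -2.26, and the hormone Fgf21 had -2.23 and -1.11. Plin2, a lipid droplet protein, had 204 CPM at 8 weeks and 579 at 12 weeks, against 837 in the control (-2.03 and -0.53). Between 12 and 8 weeks, 4 of the 16 were called higher: Fgf21 (1.12), Plin2 and, chosen after their values were seen, Pdk4 (1.94) and Cyp4a32 (1.70). Cyp4a31 was called lower there. Over all genes 1.28% were called higher and 1.23% lower in that comparison. Against the control, Pdk4 lay below at 8 weeks (-0.96) and above at 12 weeks (0.98), and was not called at either time. Also chosen after their values were seen, the other called genes of the list were Retsat (-1.72 and -1.91), Cyp4a32 (-1.92 at 8 weeks), Aldh3a2 (-1.35 at 12 weeks) and Cyp4a14 (1.02 at 12 weeks). At 8 weeks Cyp4a14 stood at 0.98, just short of the 2-fold line. The list thus held genes that, like Acot2, stood nearer the control at 12 weeks than at 8, and others such as Cyp4a10 that did not. Some Cyp4a genes are close copies of each other. Their sequences were not compared here, and their single values are uncertain. The Cyp4a10, Fgf21 and Plin2 comparisons share the 1 control library with those of the Acot genes.

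The list of fatty acid uptake genes and acyl-CoA synthetases, the enzymes whose step thioesterases oppose, had 4 of 18 genes higher and 0 lower at 8 weeks (median 0.22) and 2 higher and 1 lower at 12 weeks (median 0.01). The fatty acid uptake receptor Cd36 had 76.7 CPM at 8 weeks and 64.6 at 12 weeks, against 11.3 in the control (2.65 and 2.41). Acsl4, a synthetase with preference for arachidonic acid, had 1.03 and 1.37, Acss2, which makes acetyl-CoA in the cytosol, had 1.18 and 0.71, and Acsf2 had -0.86 and -1.34. Acss3, chosen after its values were seen, was the other one called at 8 weeks (1.17). Acsl1, a long-chain synthetase also chosen after its values were seen, was not called, with 1255 CPM at 8 weeks and 1597 at 12 weeks, against 2261 in the control (-0.85 and -0.50). Without Cd36, which makes no acyl-CoA, the genes called higher were 3 at 8 weeks and 1 (Acsl4) at 12 weeks. None of 14 genes of coenzyme A synthesis and breakdown was called, with the pantothenate kinase Pank1 at 0.01 and -0.01. Among 8 acyl-CoA and fatty acid binding proteins, Fabp5 alone was called at 8 weeks (2.05), with 0.95 at 12 weeks.

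Of other thioesterases, 7 of 12 listed genes were kept and 1 was called, Fasn (1.72 and 1.34), the fatty acid synthase, which carries a thioesterase domain. Baat, chosen after its values were seen, conjugates bile acids and had -0.05 and -0.08. Acot11 had 6.5 counts at 8 weeks and 14 at 12 weeks, against 6 in the control. Among regulators, Ppara had 128 CPM at 8 weeks and 134 at 12 weeks, against 107 in the control (0.26 and 0.33), its partner Rxra had -0.03 and -0.06, and Hnf4a, a hepatocyte nuclear receptor, had 0.06 and 0.48. The coactivators Ppargc1a (1.73 and 0.93) and Lpin1 (2.099 and 1.52) were called higher at 8 weeks, and Lpin1 at 12 weeks too. Pparg had 114 counts at 8 weeks and 22 at 12 weeks, against 66 in the control. Its log2 ratio was 0.61 at 8 weeks (interval 0.26 to 1.17), not called, and -1.14 at 12 weeks, called lower.

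**Figure D5:**
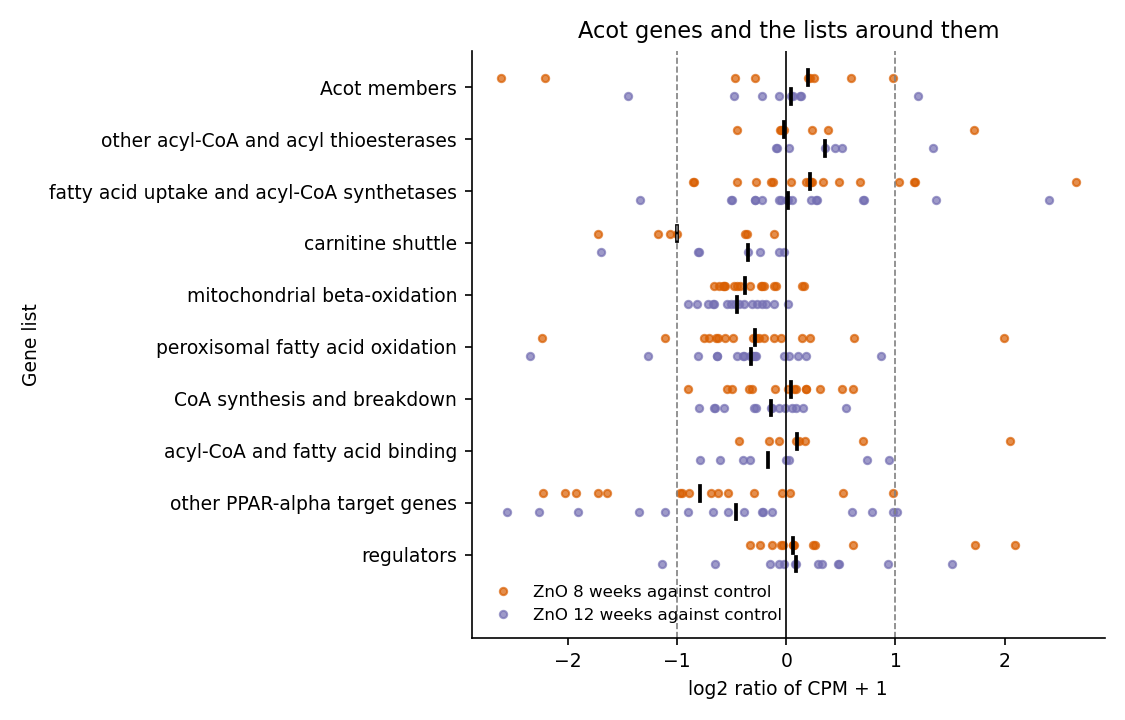
Log2 ratio of CPM + 1 of each kept gene (points) and the list median (black bars) for the 9 Acot genes and 9 lists around them, 8 weeks (upper row of each pair) and 12 weeks (lower row) against the control; dashed lines mark 2-fold. The medians of the carnitine shuttle (-1.001 and -0.35) and of other PPAR-alpha targets (-0.79 and -0.46) lie below 0, that of the Acot genes (0.20 and 0.04) does not.

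The genes whose pattern was most like that of Acot1 were found by the distance between pairs of log2 ratios (8 and 12 weeks against control) over 3 libraries and 9164 genes with a mean of at least 5 CPM. The 5 nearest were Cdkn1a (distance 0.19 in log2 units), Arntl (0.41), G0s2 (0.46), Adrb3 (0.49) and Fgf21 (0.51). Cdkn1a encodes a cell cycle inhibitor, Arntl a clock factor and G0s2 an inhibitor of a triglyceride lipase. For the 4-gene sum they were Arl4a (0.05), Slc45a3 (0.06), Bbs10 (0.06), Trim6 (0.07) and Pdilt (0.08). With 3 libraries, many genes can share a pattern, and nothing is drawn from the likeness.

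Clock genes differed between the same libraries. Of 13, chosen after earlier values were seen, 4 were called higher and 3 lower at 8 weeks, and 1 higher and 1 lower at 12 weeks. Over all genes 4.15% were higher and 2.11% lower at 8 weeks, and 3.11% higher and 1.34% lower at 12 weeks. Arntl had 1.40 CPM at 8 weeks and 5.29 at 12 weeks, against 18.1 in the control, and Per2, a repressor of the clock, had 76.6 CPM at 8 weeks and 45.3 at 12 weeks, against 20.1 in the control. In both genes, as in Acot1, the 12-week library lay between the 8-week library and the control. The part of the clock phase or the hour of collection in the values of the Acot genes was not tested.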

How the data were processed

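Each deposited table holds 1 value per gene, read as estimated counts without normalization because values carry fractions and sum to different totals. Tools named in the submitters' processing notes are Cufflinks 2.2.1.0 and TopHat2 2.1.0, and the genome builds listed there are mm10 and mm9, with no statement of their use. How reads were counted, and with which strand setting, is not given in the sources used here. Whole values (within 0.005) made up 70.4% of values above 0 in the control.

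Estimated counts were rounded and scaled with edgeR 4.0.16 under R 4.3.3 by the TMM method (factors: 1.005 at 8 weeks, 0.999 at 12 weeks and 0.997 in the control). Genes at 1 CPM or more in 1 library were kept, 1 CPM was added, and genes were called at 2-fold. The 4 entries whose names repeat were left out of the calls. At this depth 3 counts correspond to 0.209 CPM at 8 weeks, 0.227 at 12 weeks and 0.221 in the control. No molecular identifiers are named, so reads may repeat molecules, and intervals cover counting error only. Members, lists and the promoter search were chosen with earlier results of these data known. Of each list, genes that were called in either comparison with the control and reached 5 CPM in 1 library were named, at most 4 by size of change, or else, with none called, the 2 most abundant. Ppara, Rxra, Hnf4a and Ppargc1a were named in any case. The clock genes, the promoter search with 1 mismatch and the compartment sums were added after values were seen. Sequences are from RefSeq (GRCm38.p6) and GENCODE M21. Calls and intervals were tested on simulated counts. The pseudocount, the filter, the fold threshold and the scaling (size factors of DESeq2 1.42.0, total counts) were varied in turn.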

Additional observations from a re-analysis of the deposited data

How the results depend on the processing

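Each value of a single Acot gene or of the 4-gene sum kept its direction wherever it was called. Of 297 such values under other settings, 295 moved by less than their counting interval. The other 2 were Acot2 with 5 CPM added, at -1.99 for 8 weeks against control and 1.79 for 12 against 8 weeks. A changed filter or fold threshold leaves a log2 ratio as it is, so values under those settings could not move. They are among the 297, which therefore overstates how far the ratios were tested. Calls changed with the pseudocount and the threshold: with 0.1 CPM added, 1 member (Acot3) was called higher at 8 weeks. At 1.5-fold, 2 (Acot3 and Acot13) were higher at 8 weeks, and the 4-gene sum was called in all 3 comparisons. At 3-fold, 0 members were higher and 0 lower at 12 weeks, and 1 (Acot2) was higher between 12 and 8 weeks, and the 4-gene sum was no longer called at 8 weeks (-1.49). Counted as 1 summed gene, Acot1 to Acot4 gave 1 member lower at 8 weeks, 0 higher and 0 lower at 12 weeks, and 0 higher between 12 and 8 weeks. Sums chosen after seeing the data gave -2.54, -1.09 and 1.45 for Acot1 and Acot2 (8 weeks, 12 weeks, 12 against 8), and -0.41, 0.20 and 0.61 for Acot2 to Acot4. Over all genes, 0.1 CPM added gave 1058 genes higher and 597 lower at 8 weeks, 942 and 415 at 12 weeks, and 443 and 405 between 12 and 8 weeks. With 5 CPM added there were 269 genes higher and 160 lower at 8 weeks, 179 and 80 at 12 weeks, and 89 and 72 between 12 and 8 weeks. At 1.5-fold there were 1546 genes higher and 1161 lower at 8 weeks, 1353 and 907 at 12 weeks, and 789 and 690 between 12 and 8 weeks; at 3-fold, 225 genes higher and 92 lower at 8 weeks, 132 and 48 at 12 weeks, and 61 and 67 between 12 and 8 weeks. For the pathway genes, 1.5-fold gave 15 higher and 25 lower at 8 weeks, 14 and 28 at 12 weeks, and 8 and 10 between 12 and 8 weeks, and 3-fold gave 6 higher and 7 lower at 8 weeks, 1 and 5 at 12 weeks, and 2 and 2 between 12 and 8 weeks. Of 486 counts of single lists under the alternatives, 52 moved, either by over 1.5 times or from or to 0. No paired analysis was possible because each group has 1 library.

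Depth limits Acot9 (at most 22 counts in a library) most. The library totals without muscle markers changed no call of a member. Leaving out a library was not possible with 1 per group.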
